A study of Mus musculus with 9 samples.

Results

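The genes described here are Myc and 39 genes of polyamine synthesis, the nucleolus and ribosome assembly, 40 in all, taken by gene symbol from a list of such genes that was drawn up with earlier results of these data known. The deposited expression table lists 39 of the 40 under their gene symbols, among 24012 genes, and Noc2l was not analysed here. The 9 libraries were made by RNA sequencing of mouse pancreatic ductal adenocarcinoma (PDAC) cells recovered from the lungs of mice injected through the tail vein, in 3 groups of 3. The first group, DTC, was sorted for green fluorescent protein (GFP) alone at 5 days. The mCherryHigh and mCherryLow groups were sorted for GFP and for a high or low signal of an mCherry reporter of Gstt1, a glutathione transferase gene, at 6 weeks. All 3 groups have the same labelled genotype, which includes SIRT6F/F, p48-Cre and p53F/+, and the GFP and Gstt1-mCherry constructs, so Sirt6 and p53 alleles did not differ between them by label. The p48 promoter drives Cre in the pancreas. The labels do not say whether the libraries came from separate mice or whether several mice were pooled, so the p-values below measure the spread between these libraries, which may be technical.

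MYC is a transcription factor that, bound with its partner MAX to the E-box sequence CACGTG, raises the transcription of genes for cell growth. A large share of its known targets make ribosomes. RNA polymerase I transcribes the ribosomal RNA precursor in the nucleolus, small nucleolar RNA-protein particles (snoRNPs) modify it, and separate sets of assembly factors cut, fold and export the small and the large ribosomal subunit. Srm, spermidine synthase, and Odc1, ornithine decarboxylase, make polyamines and are well known MYC targets.

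The E-box bears on which of these genes carry a MYC-type sequence near their start. Among 31 members with an entry in the promoter table of RefSeq (build GRCm38.p6, 300 bases, from 250 before to 50 after the start), 5 held CACGTG, which reads the same on both strands. That is 16.1% of the members against 8.09% of the 27025 genes of the table, and 7.15% of its 32851 windows. The related letters CACGCG, searched on both strands, were in 9 of the 31 members (29.0%) against 10.5% of genes, and of these Pes1 held both motifs. A match describes the letters only. The E-box and its flanks in the 5 members run 5′ to 3′ on the strand of the gene, with the motif in capitals. The first base of the motif lies 60 bases before the start in Nop2 and 121 before it in Imp4, and at base 18 after it in Wdr43, base 3 in Pes1 and base 38 in Utp20.
Nop2, chr6:125131773-125131878, plus strand: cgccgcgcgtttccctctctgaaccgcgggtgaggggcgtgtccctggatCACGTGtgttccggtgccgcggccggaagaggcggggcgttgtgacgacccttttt
Imp4, chr1:34439658-34439763, plus strand: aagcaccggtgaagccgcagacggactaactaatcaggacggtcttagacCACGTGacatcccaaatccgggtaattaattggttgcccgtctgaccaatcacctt
Wdr43, chr17:71616220-71616249, plus strand: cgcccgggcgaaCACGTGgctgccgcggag
Pes1, chr11:3963965-3963994, plus strand: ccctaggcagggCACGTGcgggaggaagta
Utp20, chr10:88826765-88826789, minus strand: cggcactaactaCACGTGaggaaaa
Rrp12, Tcof1, Fbl, Rrs1, Srm, Bop1, Myc and Npm1 had no entry there.

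Levels are given as reads per 1000000 reads of the library (CPM), as deposited, and every value was a whole number of reads within 0.01 read. The recovered totals ran between 923988 and 2052623 reads in DTC, 643748 and 9800173 in mCherryHigh and 2051266 and 11861241 in mCherryLow. Where no read was counted, a level of 3 reads is still possible, equal to 4.66 CPM in mCherryHigh 1, the shallowest library, and to 0.253 CPM in mCherryLow 6, the deepest. This limit covers counting error only. Gstt1 was at 6.09, 11.2 and 7.58 CPM in DTC, at 60.6, 48.4 and 50.9 CPM in mCherryHigh libraries and at 15.1, 11.9 and 29.4 CPM in mCherryLow, so the reporter sort and the Gstt1 level went the same way. Sirt6 was at 3.41 to 9.74 CPM in DTC, 7.55 to 24.9 CPM in mCherryHigh and 10.0 to 12.2 CPM in mCherryLow. The sample codes put DTC in series 14 and the others in series 10, 12 and 13. The DTC group, its time, its sort and its code series therefore cannot be told apart. The DTC columns were also written with up to 15 digits, against 10 in the others. Whether they were processed in another way is not given, and this cannot be told apart from the group either.

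DTC 3 stood apart from DTC 1 and DTC 2. The summed level of 7 ductal tumour cell markers was 5347, 6058 and 445 CPM in DTC 1, 2 and 3, against 2118 to 5939 CPM in mCherryHigh and 1788 to 2571 CPM in mCherryLow. The summed level of the 11 macrophage markers found of 13 was 3360, 2823 and 6459 CPM in DTC, with all 11 above 5 CPM in each library. It was 612 to 1583 CPM in mCherryHigh, where C1qb and C1qc were at 0 in every library, and 431 to 2491 CPM in mCherryLow, where both were at 0 in mCherryLow 5 and 6. Endothelial markers summed to 190 to 396 CPM in DTC, 34.0 to 52.8 CPM in mCherryHigh and 15.6 to 24.8 CPM in mCherryLow. Alveolar and club cell markers summed to 122 to 471, 10.9 to 41.8 and 8.08 to 19.6 CPM in the same order. The part of these other cells in the results below was not tested. In bulk samples, fewer cells of a type and less RNA per cell cannot be told apart.

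In DTC and mCherryLow, most of the 39 members were high and low in the same libraries. Their summed level was 6905, 9093 and 1913 CPM in DTC 1, 2 and 3, then 4974, 3919 and 2887 CPM in mCherryHigh 1, 5 and 6, and 5417, 7643 and 3850 CPM in mCherryLow 1, 5 and 6. DTC 3 was the lowest DTC library for all 39 members, where it was lowest for 31.4% of all genes that reached 1 CPM. It was the lowest of all 9 libraries for 26 members, a count for which the share of all genes was not taken. Among mCherryLow libraries, mCherryLow 5 was the highest for 32 members (32.9% of all genes) and mCherryLow 6 the lowest for 32 (33.3%). Among mCherryHigh libraries, mCherryHigh 6 was the lowest for 26 members (24.2%), while mCherryHigh 1 was the highest for 22 (54.5%) and the lowest for 11 (29.7%), so members went both ways there. The ratio of a member's highest to its lowest library had a median of 4.05 in DTC, with 32 of 39 members over 3-fold, a median of 1.74 in mCherryHigh over the 38 members with no 0, with 6 over 3-fold, and a median of 2.00 in mCherryLow, with 5 over 3-fold. The spread within DTC was thus wider than in mCherryHigh or mCherryLow, and it followed 1 library.

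**Figure D1:**
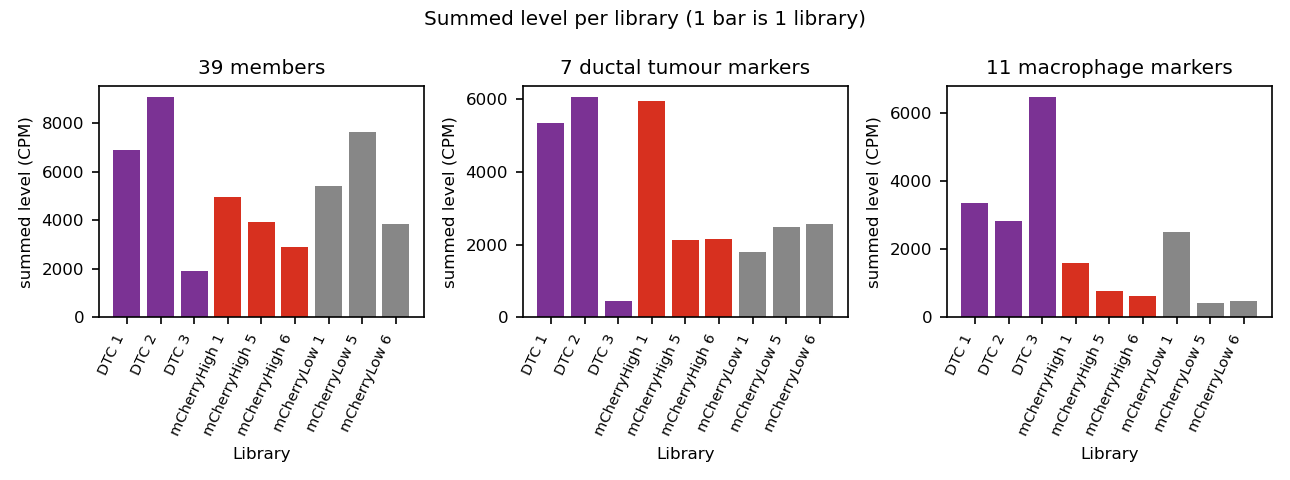
Summed level of the members in CPM in each library, beside the summed level of the ductal tumour cell and macrophage markers (vertical axes, CPM; each bar, 1 library of DTC, mCherryHigh or mCherryLow). DTC 3 has the lowest member sum, 1913 CPM, the lowest ductal sum, 445 CPM, and the highest macrophage sum, 6459 CPM.

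**Figure D2:**
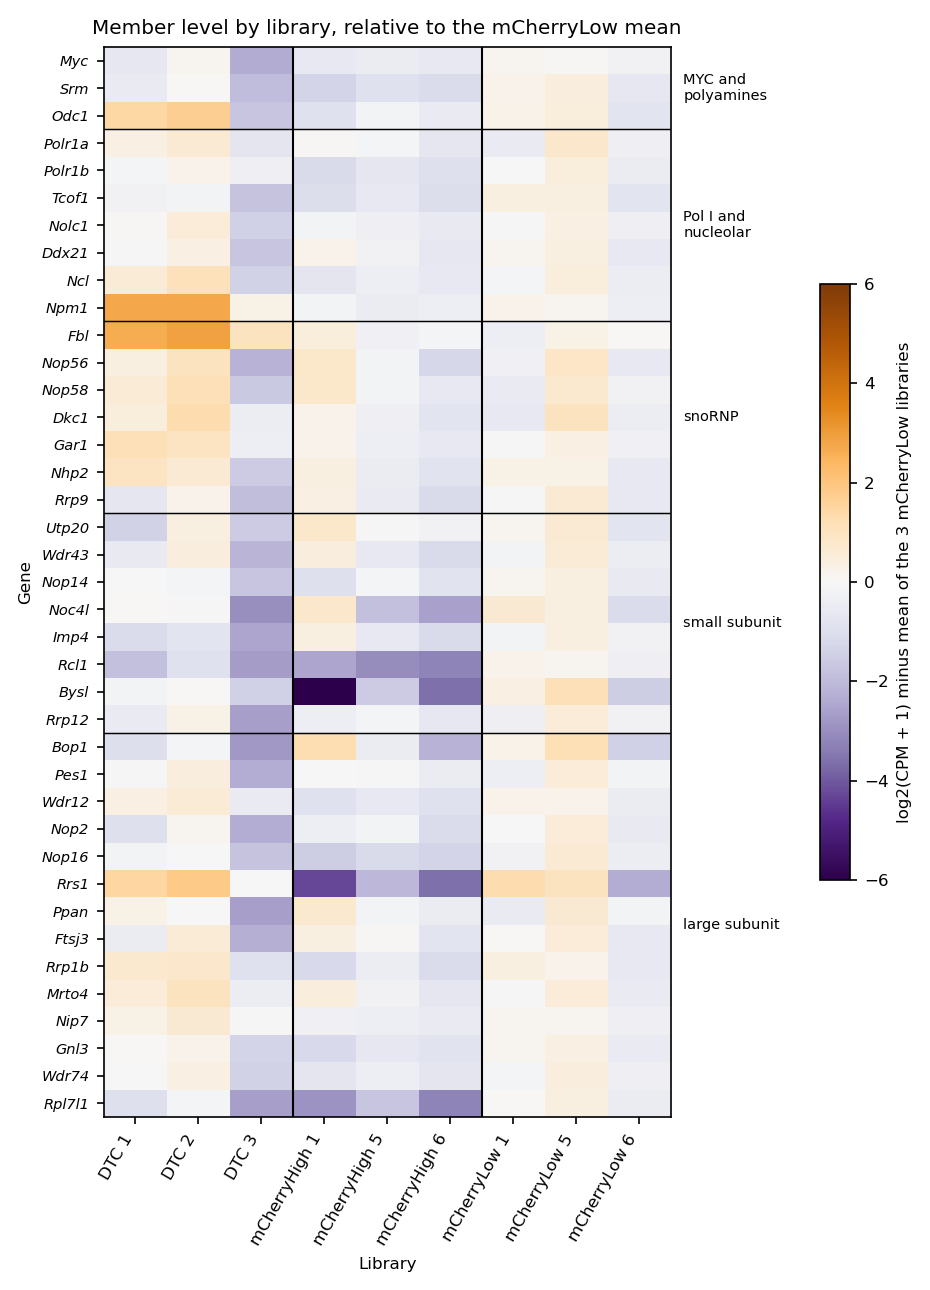
Level of each of the 39 members in each library as log2(CPM + 1) minus the mean of that member over the 3 mCherryLow libraries (colour; rows, genes by role; columns, libraries in the order DTC, mCherryHigh, mCherryLow). The DTC 3 column is low for most members, and Rrs1, Rcl1, Bysl and Rpl7l1 are low in the mCherryHigh columns.

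The first comparison asked how mCherryHigh cells differ from mCherryLow cells, both at 6 weeks. Myc and most of the ribosome assembly genes had lower mean levels in mCherryHigh, and the largest gaps were in Bysl, Rrs1, Rcl1 and Rpl7l1. None passed the test across all genes. On the log2(CPM + 1) scale, 35 of 39 members lay below 0, with a median of -0.44, a lowest value of -3.73 and a highest of 0.18, against 43.6% of all 15437 genes below 0, 56.4% above and a median of 0.09. With limma and Benjamini-Hochberg adjustment over all genes, 0 members and 0 genes passed an adjusted p of 0.05 (0% called), and the smallest adjusted p of any gene was 0.444. At an unadjusted p under 0.05, 11 members were lower and 0 higher, against 3.3% of all genes lower and 6.08% higher. That count of 11 was 4 without mCherryLow 5, 5 without mCherryLow 1 and 7 without mCherryHigh 6. It was 4 with the code series as a term, where mCherryHigh 6, alone in series 13, does not inform the difference. In the same order, 332, 265, 473 and 348 of all 15437 genes were lower, and 624, 571, 628 and 506 higher. edgeR on the recovered reads also called 0 members and 0 genes. Its unadjusted p was under 0.05 for 13 members lower and 0 higher, against 686 of 15437 genes lower and 535 higher. DESeq2 called 3 members lower, Rcl1, Rpl7l1 and Rrs1, against 0.575% of genes lower and 0.298% higher.

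Myc was at 216, 241 and 218 CPM in mCherryHigh 1, 5 and 6, against 359, 345 and 288 CPM in mCherryLow 1, 5 and 6. The groups did not overlap, and all 3 mCherryHigh libraries were below the lowest mCherryLow library. The difference was -0.55 (SE 0.20, limma adjusted p = 0.488). Srm was at 55.9, 77.0 and 66.5 CPM in mCherryHigh cells, against 165, 190 and 90.1 CPM in mCherryLow, with no overlap and a difference of -1.09 (SE 0.34, limma adjusted p = 0.484). Odc1 was at 38.8, 63.4 and 51.0 CPM in mCherryHigh and at 87.3, 101 and 42.6 CPM in mCherryLow, where mCherryLow 6 was within the mCherryHigh range. Median differences by role were -0.55 for Myc and the polyamine genes, -0.33 for the polymerase I and nucleolar group, -0.25 for the snoRNP proteins, -0.53 for the small subunit and -0.57 for the large subunit.

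In the polymerase I and nucleolar group all 7 members lay below 0. Polr1b, the second largest subunit of RNA polymerase I, was at 24.9, 34.7 and 29.2 CPM in mCherryHigh cells, against 55.1, 78.6 and 40.4 CPM in mCherryLow, with no overlap (difference -0.91, SE 0.36, limma adjusted p = 0.514). Tcof1, the treacle protein needed for ribosomal gene transcription, was at 71.5, 95.4 and 69.8 CPM in mCherryHigh cells, against 187, 190 and 83.0 CPM in mCherryLow. The mCherryLow 6 value fell inside the mCherryHigh range (difference -0.87, SE 0.37, limma adjusted p = 0.528). Ncl, nucleolin, was at 561, 740 and 626 CPM in mCherryHigh and at 876, 1313 and 718 CPM in mCherryLow. Again mCherryLow 6 lay within the mCherryHigh values.

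The snoRNP proteins had the smallest of the 5 median differences. Of the 7, 5 lay below 0 and none was free of overlap. Gar1, of the particles that make pseudouridine, was at 66.8, 44.5 and 37.6 CPM in mCherryHigh and at 54.6, 73.7 and 47.5 CPM in mCherryLow (difference -0.25, SE 0.34, limma adjusted p = 0.877). Rrp9, which binds the U3 snoRNA, was at 94.8, 52.5 and 33.6 CPM in mCherryHigh and at 72.2, 118 and 49.4 CPM in mCherryLow (difference -0.43, SE 0.47, limma adjusted p = 0.831). Fbl, fibrillarin, the methyltransferase of the particles that methylate ribosomal RNA, was at 21.8, 12.7 and 13.8 CPM in mCherryHigh and at 11.7, 19.0 and 15.5 CPM in mCherryLow.

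Among small subunit factors, Rcl1 and Bysl stood below the rest. Rcl1, a factor of early pre-ribosomal RNA cleavage, was at 18.6, 12.8 and 11.0 CPM in mCherryHigh cells, against 128, 118 and 87.6 CPM in mCherryLow. Every mCherryHigh library was far under every mCherryLow library (difference -2.90, SE 0.35, limma adjusted p = 0.444; DESeq2 -3.21, adjusted p = 5.18e-12). Bysl, bystin, which acts in small subunit maturation, was at 0, 19.9 and 4.09 CPM in mCherryHigh cells, against 78.5, 140 and 21.2 CPM in mCherryLow, with no overlap by a small margin (difference -3.73, SE 1.15, limma adjusted p = 0.484). The 0 in mCherryHigh 1 allows up to 4.66 CPM. Exons of Bysl overlap Ccnd3 on the other strand, and counting is not stated to use strand. Ccnd3 was at 76.1, 144 and 185 CPM in mCherryHigh and at 182, 109 and 220 CPM in mCherryLow, an overlapping range.

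Among the large subunit factors 13 of 14 lay below 0. Rrs1, which helps bring the 5S particle into the large subunit in yeast, was at 1.55, 11.0 and 3.07 CPM in mCherryHigh cells, against 121, 101 and 9.11 CPM in mCherryLow. The value in mCherryHigh 1 is 1 read, and mCherryLow 6 fell below mCherryHigh 5, so the groups overlapped (difference -3.33, SE 1.04, limma adjusted p = 0.486; DESeq2 -3.88, adjusted p = 0.0149). Nop16, a nucleolar MYC target, was at 38.8, 50.4 and 44.2 CPM in mCherryHigh cells, against 99.5, 175 and 84.7 CPM in mCherryLow, with no overlap (difference -1.34, SE 0.34, limma adjusted p = 0.444). Rpl7l1, a paralogue of the ribosomal protein Rpl7, was at 20.2, 46.3 and 15.8 CPM in mCherryHigh cells, against 158, 209 and 114 CPM in mCherryLow, again with no overlap (difference -2.61, SE 0.45, limma adjusted p = 0.444; DESeq2 -2.64, adjusted p = 0.00204). Wdr12, Gnl3 and Wdr74 were also without overlap, which made 10 members lower without overlap in all and none higher, against 5.78% of all genes lower and 10.2% higher. Fitting the code series as a term, to which mCherryHigh 6 adds nothing, the difference was -2.82 for Rcl1, -2.23 for Rpl7l1, -1.29 for Nop16 and -0.53 for Myc. The member median in that fit was -0.24, with 30 of 39 below 0. Within series 10, which holds 1 library a group, Rcl1 was at 18.6 CPM in mCherryHigh 1 and 128 CPM in mCherryLow 1. Within series 12 it was at 12.8 CPM in mCherryHigh 5 and at 118 and 87.6 CPM in mCherryLow 5 and 6.

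**Figure D3:**
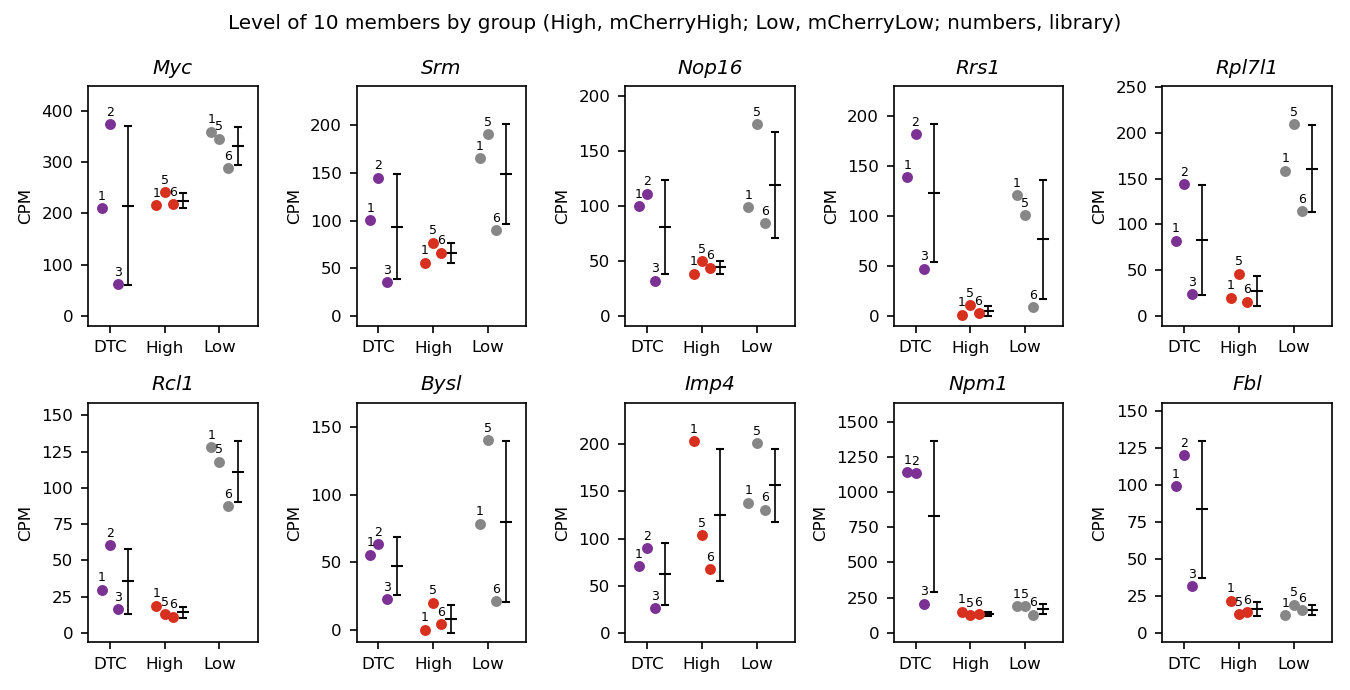
Level of 10 members in CPM (vertical axes, linear, CPM; points, libraries numbered by replicate in DTC, mCherryHigh and mCherryLow; bar, mean and SD, n = 3). Rcl1 and Rpl7l1 in mCherryHigh sit below every mCherryLow library, and Npm1 in DTC 1 and DTC 2, at 1141 and 1134 CPM, sits above all the other libraries.

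The second comparison set DTC against mCherryLow. Npm1 and Fbl rose in DTC, Rcl1 and Imp4 fell, and the other 35 members did not pass the test. With limma, 2 members were called higher and 2 lower, against 34.2% of all 18701 genes higher and 8.87% lower. The share of members called was thus below the background in both directions, and by more in the upward one. In all, 25 members lay below 0 and 14 above, with a median of -0.49, while 62.6% of all genes lay above 0 and their median was 0.59. edgeR called 2 members higher and 2 lower, against 24.4% and 16.6% of genes, and DESeq2 called 2 higher and 4 lower, against 27.5% and 15.8% of genes. With median-of-ratios scaling limma called 2 higher and 4 lower, against 30.2% and 16.1% of genes. Without DTC 3 the member median was 0.13, with 23 above 0 and 16 below, and 4 members were called higher (Fbl, Npm1, Gar1 and Odc1) and 1 lower (Rcl1), against 30.9% and 7.02% of genes. The sign of the member median in this comparison thus turned on 1 library, the one with the low ductal and high macrophage sums. Without DTC 3 the median of all genes was 0.60, with 12071 of 18701 above 0. The member median therefore stayed below that of all genes with or without DTC 3.

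Npm1, nucleophosmin, a nucleolar chaperone that takes part in ribosome export, was at 1141, 1134 and 208 CPM in DTC, against 191, 189 and 130 CPM in mCherryLow. All 3 DTC libraries were above all mCherryLow libraries, DTC 3 by little (difference 1.94, SE 0.57, limma adjusted p = 0.017; 2.76, adjusted p = 0.00312 without DTC 3). The call was lost without DTC 1 (adjusted p = 0.0891), without DTC 2 (0.0793), without mCherryLow 6 (0.0545) and with reads thinned to the shallowest library (0.0601). Fbl was at 98.9, 120 and 31.4 CPM in DTC, against 11.7, 19.0 and 15.5 CPM in mCherryLow, with no overlap (difference 2.18, SE 0.54, limma adjusted p = 0.00691; 2.77, adjusted p = 0.00329 without DTC 3). Npm1 and Fbl share sequence with pseudogenes, which makes their counts uncertain, and so do Odc1, Pes1 and Nop56. Mrto4 shares sequence with 268 other genes, 8 of them pseudogenes. These 6 were the members with under 90% of their windows unique. Rrs1, at 93.7%, shares sequence with 3 other genes, all 3 pseudogenes. Of 50-base windows, 75.7% were unique to Npm1 and 80.3% to Fbl, and the shares were 75.7% for Odc1, 76.7% for Pes1, 81.4% for Nop56 and 87.8% for Mrto4. One such pseudogene of Npm1, Gm7289, was at 19.8, 17.1 and 21.7 CPM in DTC and between 0 and 3.11 CPM in the 6 other libraries. One of Fbl, Gm6211, was at 9.89, 14.6 and 32.5 CPM in DTC and between 0 and 1.55 CPM in the others.

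The small subunit factors lay below 0 in 8 of 8 members in this comparison, with a median of -0.90, also without DTC 3, where the median was -0.08. Rcl1 was at 29.7, 60.4 and 16.2 CPM in DTC, below each of the mCherryLow values of 128, 118 and 87.6 CPM (difference -1.80, SE 0.48, limma adjusted p = 0.0105; -1.35, adjusted p = 0.0287 without DTC 3). Imp4, a subunit of the U3 particle that carries an E-box above, was at 70.8, 89.6 and 26.0 CPM in DTC, against 138, 201 and 130 CPM in mCherryLow, with no overlap (difference -1.46, SE 0.47, limma adjusted p = 0.0248). Without DTC 3 the Imp4 difference was -0.94 with an adjusted p of 0.0526, and without mCherryLow 5 the adjusted p was 0.0781. With reads thinned to the shallowest library, with no mean trend and with quantile normalization it was 0.0964, 0.053 and 0.0827. Exons of Imp4 overlap Gm28306 on the other strand.

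Myc was at 210, 373 and 62.8 CPM in DTC, against 359, 345 and 288 CPM in mCherryLow, so that DTC 2 was above every mCherryLow library and DTC 3 below them all (difference -0.95, SE 0.54, limma adjusted p = 0.172; -0.23 without DTC 3). Without DTC 2, Myc was called lower (-1.51, limma adjusted p = 0.0353), as were Nop2 and Rpl7l1 beside Rcl1 and Imp4. Srm, at 100, 145 and 35.7 CPM in DTC and 165, 190 and 90.1 CPM in mCherryLow, differed by -0.80 (SE 0.51, adjusted p = 0.223). Odc1, at 195, 236 and 21.6 CPM in DTC and 87.3, 101 and 42.6 CPM in mCherryLow, was called higher without DTC 3 (1.56, adjusted p = 0.0187). Nop16 differed by -0.66 (SE 0.50, adjusted p = 0.304), Rpl7l1 by -1.23 (SE 0.56, adjusted p = 0.0981), Nop2 by -1.05 (SE 0.56, adjusted p = 0.149), Tcof1 by -0.69 (SE 0.50, adjusted p = 0.282) and Rrp9 by -0.78 (SE 0.55, adjusted p = 0.267). Rrs1 was at 139, 182 and 47.6 CPM in DTC and 121, 101 and 9.11 CPM in mCherryLow. Its difference of 1.10 (SE 0.83, adjusted p = 0.301) was -0.05 without mCherryLow 6.

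The third comparison, DTC against mCherryHigh, shares each group with one of the others. Rrs1, Bysl, Npm1 and Fbl rose in DTC and no member fell with all libraries in the fit. With limma, 4 members were called higher and 0 lower, against 23% of all 19700 genes higher and 7.19% lower. At an unadjusted p under 0.05, 5 members were higher and 0 lower, against 30.9% and 11.6% of all genes. The member median was 0.29, with 26 above 0 and 13 below, while 63.4% of all genes lay above 0 and their median was 0.55. edgeR called 3 members higher, against 15.9% of genes, and DESeq2 called 4, against 21.2%, and neither called a member lower. Without DTC 2 the member median was -0.10, 1 member was called higher, Rrs1, and 1 lower, Utp20 (difference -1.67, limma adjusted p = 0.0424), against 20.4% and 7.45% of genes. The all-gene median without DTC 2 was 0.56. Without DTC 3 the member median was 0.86, with 36 above 0, against 0.53 for all genes. By CPM with the 1 CPM filter, the members thus lay below all genes with every library in the fit and above them without DTC 3. The side also depended on filter and scaling. Among genes at 5 CPM or more in at least 3 libraries, the member median was 0.29, against 0.23 for all genes. It was 0.36 against -0.10 with quantile normalization and 0.73 against 0.56 with array weights. It was 0.10 against 0.39 with median-of-ratios scaling and 0.04 against 0.21 in edgeR. Without DTC 3, 10 members were called higher and 0 lower, against 14.8% and 5.1% of genes. Those 10 were Rrs1, Npm1, Fbl, Odc1, Ncl, Gar1, Nop16, Wdr12, Rrp1b and Rpl7l1.

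Rrs1 was at 139, 182 and 47.6 CPM in DTC, against 1.55, 11.0 and 3.07 CPM in mCherryHigh. Every DTC library was far above every mCherryHigh library (difference 4.43, SE 0.70, limma adjusted p = 0.00226; 5.00, adjusted p = 0.0155 without DTC 3), and the call held in every alternative tried. Bysl was at 55.6, 63.3 and 22.7 CPM in DTC, against 0, 19.9 and 4.09 CPM in mCherryHigh, with no overlap (difference 3.22, SE 0.96, limma adjusted p = 0.0269). Its call was lost without any 1 of the DTC libraries (adjusted p = 0.107, 0.101 and 0.0613) and in edgeR (1.92, adjusted p = 0.127), with thinned reads (0.0578) and with quantile normalization (0.0884). Npm1, at 1141, 1134 and 208 CPM in DTC and 151, 124 and 132 CPM in mCherryHigh, differed by 2.24 (SE 0.58, limma adjusted p = 0.0148; 3.06, adjusted p = 0.00836 without DTC 3). Fbl, at 98.9, 120 and 31.4 CPM in DTC and 21.8, 12.7 and 13.8 CPM in mCherryHigh, differed by 2.14 (SE 0.56, limma adjusted p = 0.0157; 2.72, adjusted p = 0.0166 without DTC 3). Both lost the call without DTC 1 (0.0808 and 0.0815) and without DTC 2 (0.0636 and 0.065), and Fbl also with quantile normalization (0.0576).

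With those 4, Polr1b, Wdr12 and Nip7 made 7 members higher in DTC without overlap, against 31.4% of all genes. Polr1b, at 51.8, 65.3 and 44.4 CPM in DTC and 24.9, 34.7 and 29.2 CPM in mCherryHigh, differed by 0.84 (SE 0.41, limma adjusted p = 0.145). Wdr12, which forms the PeBoW complex with Pes1 and Bop1, differed by 0.95 (SE 0.40, adjusted p = 0.0978), and was at 111, 132 and 61.7 CPM in DTC and 46.6, 56.6 and 46.5 CPM in mCherryHigh. Its partner Bop1 differed by -0.81, with overlapping values. Bop1 was at 90.6, 162 and 24.9 CPM in DTC and at 419, 127 and 37.6 CPM in mCherryHigh, and its exons overlap Mroh1 on the other strand. Nop16 differed by 0.68 (SE 0.50, adjusted p = 0.321), Odc1 by 0.99 (SE 0.74, adjusted p = 0.334), Rcl1 by 1.11 (SE 0.58, adjusted p = 0.167) and Gar1 by 0.83 (SE 0.48, adjusted p = 0.206). Myc, at 210, 373 and 62.8 CPM in DTC and 216, 241 and 218 CPM in mCherryHigh, differed by -0.40 (SE 0.55, adjusted p = 0.607), and by 0.32 without DTC 3.

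**Figure D4:**
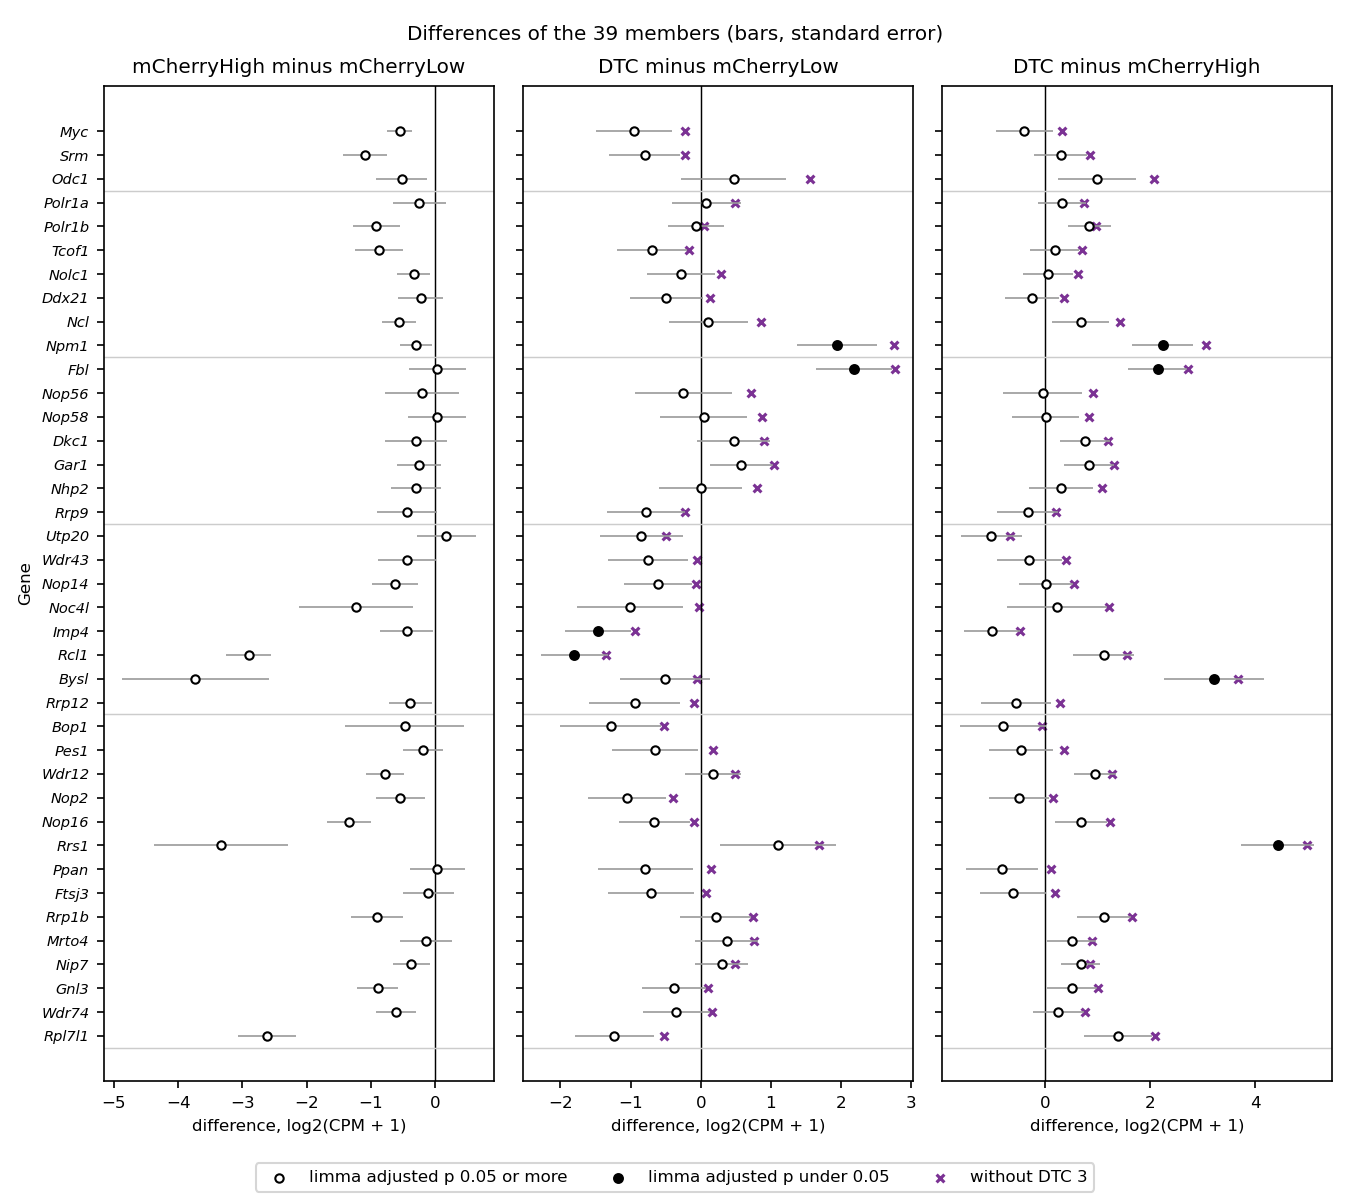
Difference of each member in the comparisons mCherryHigh minus mCherryLow, DTC minus mCherryLow and DTC minus mCherryHigh (horizontal axes, log2(CPM + 1); bars, standard error; filled points, limma adjusted p under 0.05; crosses, the value without DTC 3). In the DTC panels the crosses lie to the right of the points, and no point is filled in the mCherryHigh minus mCherryLow panel.

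The members not yet given by library are described by their group means (SD, n = 3 each), and none of them passed limma's test in any comparison with all libraries. In the nucleolar group, Polr1a, the largest subunit of RNA polymerase I, averaged 65.2 ± 28.7 CPM in DTC, 49.3 ± 12.1 CPM in mCherryHigh and 61.9 ± 32.4 CPM in mCherryLow. Nolc1, which shuttles snoRNPs and links them to polymerase I, had means of 177 ± 101 CPM in DTC, 149 ± 20.6 CPM in mCherryHigh and 189 ± 46.4 CPM in mCherryLow. Ddx21, an RNA helicase of the nucleolus, averaged 106 ± 62.5 CPM in DTC, 111 ± 32.9 CPM in mCherryHigh and 132 ± 43.2 CPM in mCherryLow. These values of Nolc1 and Ddx21 overlapped between all 3 groups. Among snoRNP proteins, Nop56, a core protein of the methylating particles, had means of 315 ± 242 CPM in DTC, 272 ± 183 CPM in mCherryHigh and 290.5 ± 164 CPM in mCherryLow. Nop58, its partner in the same particles, averaged 238 ± 169 CPM in DTC, 196 ± 105 CPM in mCherryHigh and 189 ± 89.3 CPM in mCherryLow. Dkc1, dyskerin, the pseudouridine synthase, had means of 133 ± 74.8 CPM in DTC, 72.4 ± 25.3 CPM in mCherryHigh and 97.7 ± 65.1 CPM in mCherryLow. Nop56 and Nop58 were at their highest in DTC 2, and at 469 and 315 CPM in mCherryHigh 1, above the mean of every group. Nhp2, which binds with dyskerin, averaged 231 ± 154 CPM in DTC, 158 ± 71.9 CPM in mCherryHigh and 188 ± 60.5 CPM in mCherryLow.

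Of the small subunit factors, Utp20, a large scaffold protein of the processome, had means of 32.2 ± 27.4 CPM in DTC, 57.1 ± 24.6 CPM in mCherryHigh and 51.3 ± 23.3 CPM in mCherryLow. Wdr43, which belongs to the t-UTP complex, averaged 148 ± 112 CPM in DTC, 161 ± 93.2 CPM in mCherryHigh and 204 ± 77.0 CPM in mCherryLow. Nop14, a processome subunit, had means of 60.6 ± 31.1 CPM in DTC, 55.1 ± 17.8 CPM in mCherryHigh and 85.4 ± 26.8 CPM in mCherryLow. Utp20 and Wdr43 are among the members with an E-box, and their values overlapped between the groups. Noc4l, the partner of Nop14, averaged 46.9 ± 34.1 CPM in DTC, 48.2 ± 59.3 CPM in mCherryHigh and 76.5 ± 40.3 CPM in mCherryLow. Rrp12, an export factor, had means of 45.8 ± 35.3 CPM in DTC, 50.9 ± 8.84 CPM in mCherryHigh and 68.3 ± 24.1 CPM in mCherryLow. Noc4l showed its widest spread in mCherryHigh, where 1 library was at 116 CPM and the others at 18.1 and 10.1 CPM. Of the large subunit factors, Pes1, pescadillo, of the PeBoW complex, averaged 92.2 ± 65.2 CPM in DTC, 98.2 ± 14.2 CPM in mCherryHigh and 115 ± 40.6 CPM in mCherryLow. Nop2, a ribosomal RNA methyltransferase, had means of 80.9 ± 60.1 CPM in DTC, 96.4 ± 30.8 CPM in mCherryHigh and 142 ± 54.2 CPM in mCherryLow. Ppan, a member of the Brix domain family, averaged 68.8 ± 49.3 CPM in DTC, 95.4 ± 44.3 CPM in mCherryHigh and 92.2 ± 40.9 CPM in mCherryLow. Pes1 and Nop2, which also hold an E-box, had overlapping values in the groups. Ftsj3, a ribosomal RNA methyltransferase, had means of 146 ± 119 CPM in DTC, 176 ± 67.9 CPM in mCherryHigh and 187 ± 71.5 CPM in mCherryLow. Rrp1b, a nucleolar factor, averaged 75.8 ± 38.5 CPM in DTC, 31.4 ± 10.1 CPM in mCherryHigh and 60.2 ± 19.9 CPM in mCherryLow. Mrto4, a homologue of the P0 stalk protein that holds its place during assembly, had means of 103 ± 46.3 CPM in DTC, 70.7 ± 28.8 CPM in mCherryHigh and 77.0 ± 27.5 CPM in mCherryLow. In DTC 3 these were at 35.7, 31.4 and 55.2 CPM, each the lowest of the DTC values. Nip7, which acts in the late nucleolar steps, averaged 78.1 ± 20.8 CPM in DTC, 47.7 ± 4.01 CPM in mCherryHigh and 62.6 ± 10.8 CPM in mCherryLow. Gnl3, nucleostemin, a nucleolar GTPase, had means of 88.6 ± 42.8 CPM in DTC, 56.6 ± 10.6 CPM in mCherryHigh and 108 ± 30.5 CPM in mCherryLow. Wdr74, which acts in the release of assembly factors, averaged 68.0 ± 35.7 CPM in DTC, 50.9 ± 7.76 CPM in mCherryHigh and 79.4 ± 23.2 CPM in mCherryLow. Gnl3 and Wdr74 in mCherryHigh were below every mCherryLow library.

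The pathway beyond the members was read from 132 further genes of the same pathways, of which 129 were in the table. For mCherryHigh against mCherryLow, 127 were tested, 97 lay below 0 and 30 above, with a median of -0.27. Of all genes, 43.6% lay below 0 and 56.4% above, with a median of 0.09. Limma called 0 of the 127. At an unadjusted p under 0.05, 15 were lower and 2 higher, against 3.3% and 6.08% of all genes. The lists differed in sign. Below 0 lay 35 of 42 small subunit genes, 37 of 43 large subunit genes and 11 of 12 polymerase I genes. Of the MYC network, 8 of 11 genes lay above 0, with a median of 0.35, against 56.4% of all genes. That list held Mycn, Mycl, Max, Mxd1, Mxd3, Mxd4, Mxi1, Mnt, Mga, Mlx, Mlxip and Mlxipl, and not Myc. MYC activity was not tested. Of the genes with the smallest p, Utp4, of the small subunit processome and listed in the table under its older symbol, was at 26.4, 43.6 and 24.9 CPM in mCherryHigh cells, against 99.0, 195 and 88.6 CPM in mCherryLow (difference -1.93, SE 0.40, limma adjusted p = 0.444). Rrp8, a ribosomal RNA methyltransferase, was at 1.55, 9.90 and 13.9 CPM in mCherryHigh cells, against 60.9, 112 and 51.0 CPM in mCherryLow (difference -3.26, SE 0.71, limma adjusted p = 0.444). DESeq2 called both lower, with adjusted p-values of 0.01 and 0.00113. Neither gene's groups overlapped.

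For DTC against mCherryLow, 9 of the 129 rose and 10 fell, with a median of -0.25, against 34.2% of all genes higher, 8.87% lower and a median of 0.59. Without DTC 3 these counts were 11 and 4, with a median of -0.04, against 30.9% and 7.02% of genes and an all-gene median of 0.60. Oaz1, antizyme, which inhibits ornithine decarboxylase, was at 181, 174 and 131 CPM in DTC, against 55.1, 49.2 and 46.4 CPM in mCherryLow (difference 1.66, SE 0.34, limma adjusted p = 0.00286; 1.80 without DTC 3). Amd1, which supplies the aminopropyl donor of polyamine synthesis, averaged 46.9 ± 12.4 CPM in DTC and 7.75 ± 3.34 CPM in mCherryLow (SD, n = 3 each; difference 2.49, SE 0.51, limma adjusted p = 0.00258; 2.69 without DTC 3). Ddx24, an RNA helicase, averaged 98.0 ± 16.4 CPM in DTC and 325.9 ± 89.8 CPM in mCherryLow (difference -1.70, SE 0.35, limma adjusted p = 0.00275; -1.58 without DTC 3). All 3 calls held without that library. Sequence shared with other genes or pseudogenes was checked for the members only, and its part in the counts of these other pathway genes was not tested. For DTC against mCherryHigh, 8 of 128 rose and 0 fell, with a median of 0.08, against 23% of all genes higher, 7.19% lower and a median of 0.55. At an unadjusted p under 0.05, 13 were higher and 6 lower, against 30.9% and 11.6% of all genes. Without DTC 3, 9 rose and 1 fell, with a median of 0.29, against 14.8% and 5.1% of genes and an all-gene median of 0.53. Oaz1 was again higher, with 31.1, 27.6 and 43.3 CPM in mCherryHigh (difference 2.23, SE 0.38, limma adjusted p = 0.0028; 2.38, adjusted p = 0.0165 without DTC 3). Ttf1, the terminator of polymerase I transcription, was at 65.5, 51.2 and 63.9 CPM in DTC, against 9.32, 18.6 and 11.7 CPM in mCherryHigh (difference 2.15, SE 0.46, limma adjusted p = 0.00722; 2.11, adjusted p = 0.0282 without DTC 3). DTC 3 was above every mCherryHigh library for both genes.

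Some members hold the gene of a snoRNA. In the GENCODE M21 annotation, 8 of 39 members do so (Odc1, Ncl, Nop56, Nop58, Dkc1, Wdr43, Ppan and Gnl3), 20.5%, against 1.34% of the 17475 protein-coding genes of the table. In mCherryHigh against mCherryLow, Nop58 and Ppan lay at 0.03 and 0.04, and at -0.12 and -0.11 with median-of-ratios scaling, and the others of these lay below 0. Exons of 14 members overlap a gene on the other strand.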

How the data were processed

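RNA from sorted cells was made into libraries with SMART-seq v4 and Nextera XT, per the labels' protocols. The authors deposited 1 table of CPM per gene, which is reads per 1000000 reads of the library, with mm9 as the genome build, per the submitters' processing notes. The sources used here give no aligner, counter, annotation or use of strand. All 9 columns matched a sample. Whole reads were recovered from the CPM steps, with 100% of values whole within 0.01 read. The DTC columns were written with up to 15 digits. Their listed sums were 983174 to 992318 CPM, against 997997 to 1000000 CPM in mCherryHigh and mCherryLow.

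Each comparison was a separate fit of 6 libraries with limma 3.58.1 in R 4.3.3, two-sided, with a mean-variance trend, on log2(CPM + 1). Genes that reached 1 CPM in 3 or more of these libraries were tested, with Benjamini-Hochberg adjustment over all of them and a threshold of 0.05. All 39 members passed this filter in each comparison. Differences are on the log2(CPM + 1) scale, which understates the change of low genes. edgeR 4.0.16 (quasi-likelihood) and DESeq2 1.42.0 on the recovered reads were alternatives, beside other pseudocounts, filters, scalings, designs and leaving out each library. Scripts were tested on simulated data. Full statistics were given for Myc, Rrs1, Nop16 and, in each role group, the 2 members with the smallest p, and up to 4 other pathway genes were eligible per comparison. Other members with values or statistics were chosen after their values were seen. The members and lists were chosen with earlier results of these data known. Marker lists not described with the results summed to 48.0 to 145 CPM in DTC, 8.37 to 17.5 CPM in mCherryHigh and 4.04 to 9.44 CPM in mCherryLow for neutrophils, and to 28.7 to 186, 1.84 to 4.66 and 0.282 to 4.39 CPM for T and NK cells in that order. B cell markers summed to 31.2 to 74.7, 9.10 to 9.32 and 4.38 to 11.5 CPM, leukocyte markers to 345 to 1166, 90.1 to 260.2 and 97.0 to 202 CPM, and fibroblast markers to 59.4 to 167, 38.8 to 83.2 and 20.8 to 45.2 CPM. One allele of the labelled genotype, the same in all groups, is not reported here.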

Additional observations from a re-analysis of the deposited data

How the results depend on the processing

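For mCherryHigh against mCherryLow, 0 genes and 0 members were called in all alternatives but DESeq2, which called 132 genes and 3 members. The member median stayed below 0 in each, between -0.64 and -0.25 when 1 library was left out. Same-numbered mCherryHigh and mCherryLow libraries correlated at -0.204, -0.0234 and 0.27 after removing group means, and not every library correlated best with its own number. The numbers were therefore not taken as pairs, though libraries 1 of both groups also share code series 10 and libraries 5 share series 12, and whether they share a mouse is not given in the labels. The fit with the replicate number as a block called 0 genes and 0 members, with a median of -0.44. It gave 12 members lower at an unadjusted p under 0.05, against 11 without it. Of all genes, 538 were lower and 804 higher with the block, against 509 and 939 without it. No paired analysis was possible for the DTC comparisons because DTC shares fewer than 2 replicate numbers with mCherryHigh or mCherryLow.

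For DTC against mCherryLow, quantile normalization called 4300 genes, 2264 higher and 2036 lower, against 6405 higher and 1659 lower by CPM, and 1 of the 2 lower members, Imp4, was lost (adjusted p = 0.0827). Thinning to the shallowest library left 2 members called. Leaving out 1 library gave 6119 to 8255 genes, 3 to 6 members (without DTC 2, 1 higher and 5 lower) and a member median of -0.85 to 0.13, and for Rrs1 differences of -0.05 to 1.75. The all-gene median was 0.59 by CPM, 0.30 by median-of-ratios scaling and -0.14 by quantile normalization, so changes are relative to it, and 9 members, Ncl, Nhp2, Nip7, Nolc1, Nop56, Nop58, Polr1a, Rrp1b and Wdr12, took opposite signs between median-of-ratios scaling and quantile normalization. For DTC against mCherryHigh, quantile normalization called 3150 genes, 1615 higher and 1535 lower, and 2 members, and array weights called 9545 genes and 14 members. Leaving out 1 library gave 3217 to 6751 genes, 1 to 10 members, a member median of -0.10 to 0.86 and Myc differences of -0.96 to 0.32. Noc4l, Nolc1, Nop56, Nop58 and Tcof1 took opposite signs there between the same scalings. The cause of these changes was not tested. The shallow libraries limit low genes: at 4.66 CPM, the limit for a count of 0 in mCherryHigh 1, Rrs1 and Bysl levels there were not resolved.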
